A study of Macaca fascicularis and Macaca mulatta with 24 samples.

Results

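The mitochondrial ribosomal protein genes were followed in the cortex of cynomolgus macaques after stroke. Mitochondrial ribosomes translate the small set of respiratory chain subunits that mitochondrial DNA encodes. All of their proteins are encoded in the nucleus, made in the cytosol and imported, and they are named by subunit: MRPL genes for the large subunit, which forms the peptide bond, and MRPS genes for the small subunit, which reads the codons. Neurons depend heavily on oxidative phosphorylation, so these genes sit upstream of a pathway that oxygen loss stops directly. The letter in a symbol does not always give the place in the ribosome: MRPS18A and MRPS30 lie in the large subunit, and MRPS36 is now known as a component of the 2-oxoglutarate dehydrogenase complex.

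Members were all array probes that any of the deposited annotations named MRPL or MRPS followed by a number, with 1 row per gene taken from its brightest probe. They were 71 genes on 78 probes (44 named for the large and 27 for the small subunit), out of 18616 genes on 20217 probes. Of the 69 that passed a filter on low signal, 36 carry exactly their name in the newest annotation. The other 33 carry it in that spelling only in the oldest, MRPL42, MRPL3 and MRPS16 among them. Some of the 33 have a hyphenated form of the name in the newest, such as MRP-L9 for MRPL9. MRPS15, MRPS24, MRPS28 and MRPS34 have no name in the oldest. Every animal in the study had its right middle cerebral artery occluded, so no group is free of stroke. Animals received intravenous TatNR2B9c, a peptide that uncouples NMDA receptors from the scaffold protein PSD-95, at 2.6 mg/kg, or placebo, in either case 5 minutes after occlusion. Cortex was taken at 6 h or 1 h from the ischemic right hemisphere and the non-ischemic left one. This gave 8 groups of 3 animals: TatNR2B9c right 6 h, TatNR2B9c left 6 h, TatNR2B9c right 1 h, TatNR2B9c left 1 h, placebo right 6 h, placebo left 6 h, placebo right 1 h and placebo left 1 h. Strain, age and sex are not given in the sources used here.

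Each of the 24 arrays carried cortex RNA in Cy5 (red) and a macaque universal reference RNA in Cy3 (green), with no dye swap. Levels below are log2 ratios of cortex over reference, and differences between groups are differences of those ratios. Neuronal markers were above the reference on every array, with a median over 13 genes of 0.08 on the lowest array and 3.87 on the highest. On placebo left 1 h arrays 1 and 3 and placebo right 1 h array 3 the reference channel was weak: 17.99%, 15.7% and 22.2% of probes were well above background in Cy3, against 50.7% to 99.3% on the other arrays. The arrays were scanned in 3 campaigns by software version: TatNR2B9c, placebo 6 h and placebo 1 h each had their own. TatNR2B9c against placebo, and 6 h against 1 h under placebo, therefore cannot be told apart from a difference between campaigns. The right-left and the TatNR2B9c time comparisons lie within 1 campaign, but not all within 1 scan day. Placebo right 6 h arrays were all scanned on day 3, whereas placebo left 6 h arrays 1 and 3 were scanned on day 2. No placebo 6 h animal had both sides on the same slide. TatNR2B9c 6 h arrays 1 and 2 of each side were scanned on day 5, and all TatNR2B9c 1 h arrays on day 4. Tissue was bulk cortex, so fewer cells of a type and less RNA per cell cannot be told apart.

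The array reads each gene through 60-base probes. The first 30 bases of those on which the results below turn are shown, 5′ to 3′, from the deposited array files with the rheMac2 positions of the newest annotation. MRPL42, a large subunit protein, and MRPS16, a small subunit protein, carry the treatment calls in both hemispheres. MRPS34 and MRPL32 had the most extreme differences in the placebo time comparisons.
MRPL42 (chr11:94729369-94729428, plus strand): tagtgactaggagagagtaaaggaaataat
MRPS16 (chr9:63693968-63694027, plus strand): cttcagtatactttagctctacttttttat
MRPS34 (chr20:1758170-1758229, minus strand): aggtcaccttccgcgacgttttctgaggat
MRPL32 (chr3:83341176-83341235, minus strand): tgagtgaaaattttgtttatccaaaggctc
The MRPS16 probe is named MRPS16 in the oldest annotation and DNAJC9, a DnaJ-family co-chaperone gene, in both newer ones, so every value given for MRPS16 may belong to DNAJC9. The MRPS25 probe is named MRPS25 in all of them and placed on chromosome 11 by the newest, and whether that is the MRPS25 locus was not checked here.

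The genes with a pair of probes show how well a reading repeats. MRPS11, a small subunit protein, has 2 probes of the same 60 bases. MRPS21, another small subunit protein, has 2 probes overlapping by 15 bases, in capitals below (the last 30 bases of the upstream and the first 30 of the downstream probe). MRPL27, a large subunit protein near the site of peptide bond formation, has 2 probes that share none.
MRPS11 (chr7:68094053-68094112, plus strand): aagaggggagctacaggggcagccgtggcc
MRPS21 upstream probe (chr1:128681384-128681443, plus strand): catctcttttctttgTACAATCCCATTTCC
MRPS21 downstream probe (chr1:128681429-128681488, plus strand): TACAATCCCATTTCCtaaactcaaatcaca
MRPL27 (chr16:34614312-34614371, minus strand): acctgacctggggccaaaaataaagtgagc
MRPL27 second probe (chr16:34614934-34614993, minus strand): tccaggtaacagccccctgggactgaacag
Over the 24 arrays the ratios of the 2 MRPS11 probes correlated at r = 0.92, and the differences had the same sign in 10 of 12 comparisons. For MRPS21 the values were r = 0.85 and 11 of 12. For MRPL27 they were r = -0.03 and 3 of 12, and its second probe was well above background in Cy5 on 6 of 24 arrays, against 24 of 24 for the one used. MRPL30, a large subunit protein with a pair of kept probes, had r = 0.62 and 8 of 12. These correlations are descriptions: both probes of a pair share the array and its dyes.

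Of the 71 genes, 69 (43 MRPL, 26 MRPS) passed the filter that asked for a Cy5 signal well above background on all 3 arrays of at least 1 group. MRPL52, above background on 5 of 24 arrays, and MRPS14, on 0 of 24, did not pass. In 54 of the 69 the cortex signal was above background on every array. None had a saturated spot. The probes of the 69 had a median GC content of 45% (21.7% for MRPL1 to 75% for MRPL28), against 43.3% over all 17226 kept probes. Across the genes GC content and mean ratio were related weakly (Spearman's rho = -0.06, n = 69). The members lie on 19 numbered chromosomes, with at most 8 on one, chromosome 1.

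Most of these genes gave a weaker signal in cortex than in the reference RNA under intensity-dependent normalisation, but this direction depends on the scaling. The mean ratio over the 24 arrays was above 0 for 16 of 69 members (23.2%), against 52.1% of all genes, with a median of -0.39 for the members and 0.02 for all genes. Under median centring without the intensity curve, 49 of 69 (71.0%) were above 0, against 54.4% of all genes, with medians of 0.31 and 0.11. The authors' deposited ratios gave 19 of 69 (27.5%) against 57.5%. How cortex and the reference pool compare for the set as a whole is therefore not settled here.

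The order among the genes is a description of ratios, and the genes at its ends were named after their values were seen. MRPS6, a small subunit protein, had the highest mean ratio, 0.67 (range -0.02 to 1.105 over 24 arrays). MRPS25, also of the small subunit, followed at 0.62 (0.01 to 1.95) and was the 1 member above 0 on all 24 arrays. MRPS27, a small subunit protein of the pentatricopeptide repeat family, had 0.35 (-0.27 to 0.86). MRPS30, which has also been studied as a pro-apoptotic protein, had 0.32 (-0.03 to 0.87). The ranges of these neighbours overlap.

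At the other end MRPL19, a large subunit protein, had -1.58 (-2.44 to 0.20). MRPS22, whose loss causes a mitochondrial disease with combined respiratory chain defects, had -1.54 (-2.68 to -0.06). MRPL13 followed at -1.37 (-2.06 to 0.23). MRPL41, a large subunit protein that has been linked to apoptosis, had -1.22 (-1.96 to 0.07). Below 0 on all 24 arrays were 12 members. The 8 group means of a member spread by a median SD of 0.21, against 0.30 over all genes. MRPL32 had the widest spread of group means, with an SD of 0.78.

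**Figure D1:**
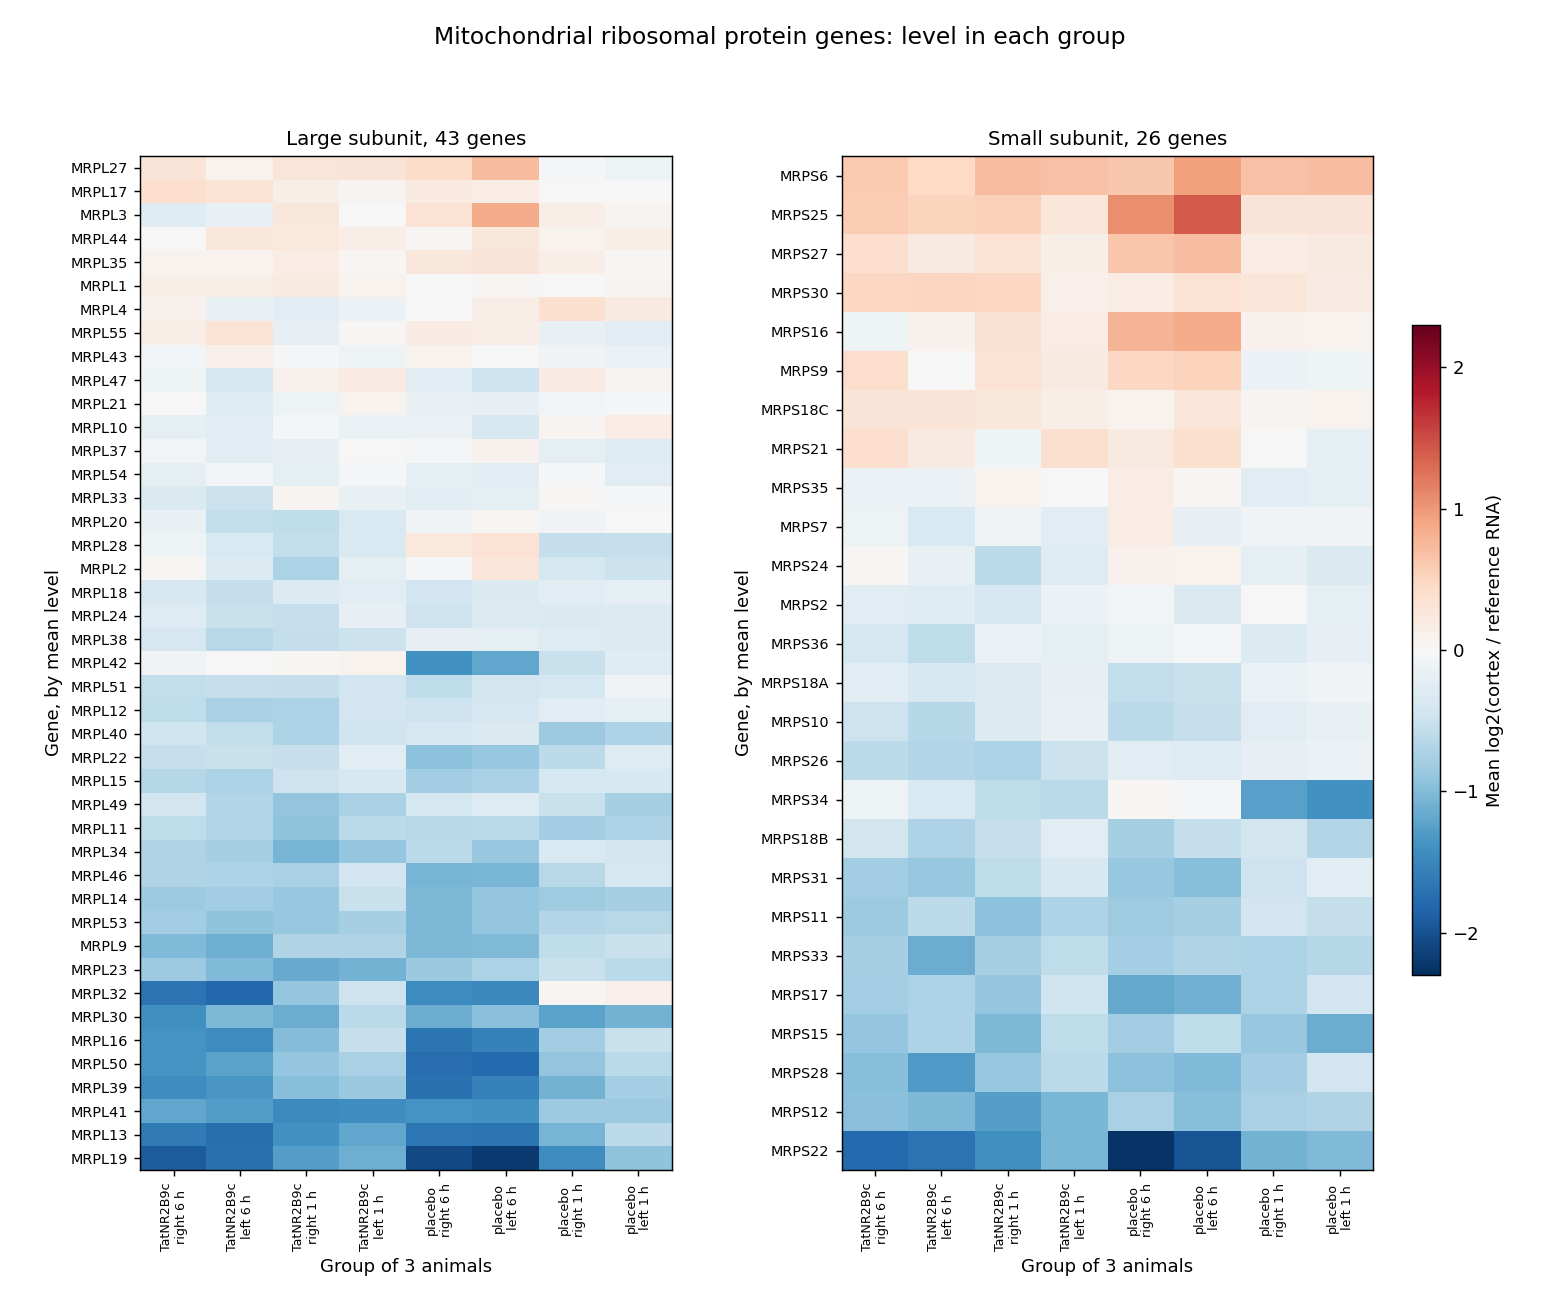
Mean log2 ratio of cortex over reference RNA (colour, 3 animals per group) for the 43 MRPL and 26 MRPS genes, ordered by mean level. The panels split the genes by symbol. Group means run from -2.26 for MRPS22 in placebo right 6 h to 1.40 for MRPS25 in placebo left 6 h.

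The first question is whether ischemia changed these genes, asked as right against left cortex of the same animals. No member was called different between the hemispheres. In limma, with Benjamini-Hochberg adjustment over all genes tested, 0 of 69 members and 0 of all genes (0.0%) were called at an adjusted p under 0.05 in TatNR2B9c 6 h, TatNR2B9c 1 h, placebo 6 h or placebo 1 h, or in the mean of the 4. At an unadjusted p under 0.05 the members numbered 2, 2, 2 and 0 in those 4 groups of animals, and 1 in the mean. Those are 2.90%, 2.90%, 2.90%, 0.0% and 1.45% of the members, against 3.24%, 4.46%, 3.88%, 1.33% and 3.78% of all genes. Right and left did not overlap for 1, 17 (14 of them lower on the right), 3 and 2 members in TatNR2B9c 6 h, TatNR2B9c 1 h, placebo 6 h and placebo 1 h, against 2.33%, 19.9%, 12.8% and 3.66% of all genes (1.45%, 24.6%, 4.35% and 2.90% of the members). Taking the replicate number as a block left all 5 counts of calls at 0.

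In the mean of the 4 groups the 95% intervals of all 69 members lay within 1 log2 unit of 0, with a median half-width of 0.22. Within a single group of animals the median half-width was 0.45, and between 65 and 68 of the 69 intervals lay within 1 log2 unit. The most negative mean differences were those of MRPL30, -0.31 ± 0.20 (SE), MRPS17, a small subunit protein, -0.21 ± 0.12, and MRPS22, -0.20 ± 0.16. The most positive were MRPS7, a small subunit head protein, 0.19 ± 0.12, MRPL47, a large subunit protein, 0.14 ± 0.06, and MRPS34, a small subunit protein whose loss causes Leigh syndrome, 0.12 ± 0.13. All 6 had an adjusted p of 0.887.

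The median difference over the 69 members was 0.08 in TatNR2B9c 6 h, -0.14 in TatNR2B9c 1 h, -0.06 in placebo 6 h and -0.04 in placebo 1 h. The same medians over all genes were 0.07, -0.03, -0.05 and 0.01. Single animals did not share a direction. The median right minus left difference of the 69 genes was 0.30, 0.03 and -0.00 in the 3 TatNR2B9c animals at 6 h, and -0.23, -0.14 and -0.01 in those at 1 h. It was -0.13, -0.12 and 0.09 in the placebo animals at 6 h, and -0.28, 0.05 and 0.16 in those at 1 h. Placebo 1 h animals 1 and 3 rest on arrays with a weak reference.

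**Figure D2:**
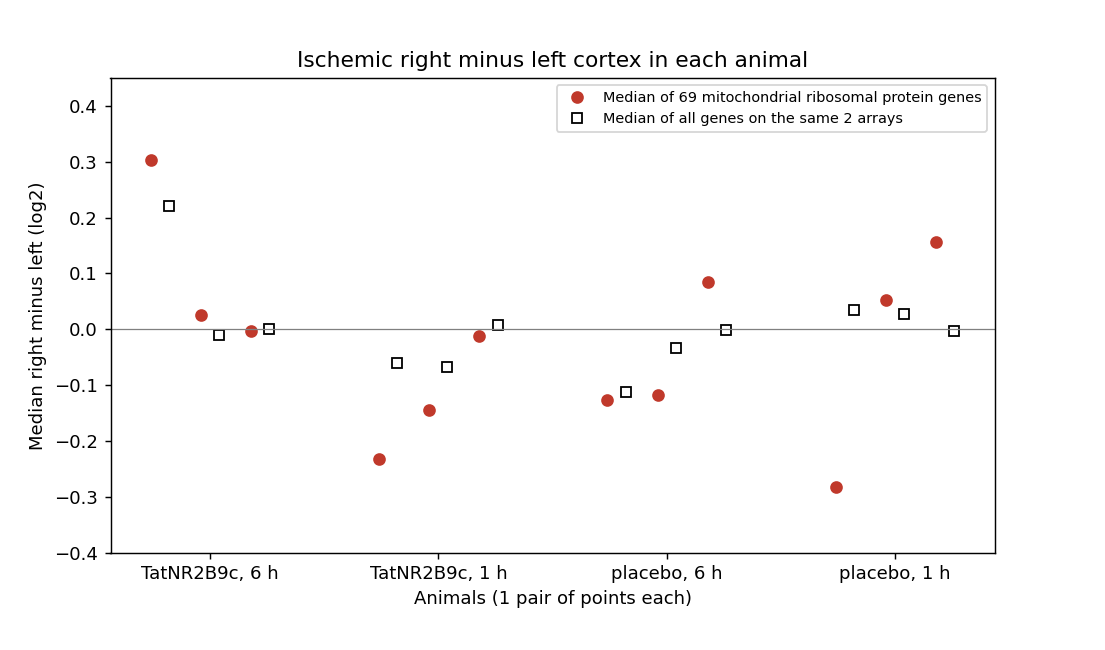
Median right minus left difference (log2) over the 69 genes (red) and over all genes on the same arrays (open squares), 1 pair of points per animal. The 12 animals run from -0.28 to 0.30 for the 69 genes, with points on both sides of 0 in all groups but TatNR2B9c 1 h, where the 3 animals lie at -0.23, -0.14 and -0.01.

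The spread of the right-left difference among the members was smaller than among all genes, with an SD of 0.09 against 0.18 in the mean of the 4 groups. Within the groups it was 0.17 against 0.27 in TatNR2B9c 6 h, 0.21 against 0.32 in TatNR2B9c 1 h, 0.16 against 0.30 in placebo 6 h and 0.17 against 0.26 in placebo 1 h. The members chosen for their role lay close to 0 in the mean difference, between -0.11 and 0.07, apart from MRPS22 above. MRPL12, a stalk protein that also binds the mitochondrial RNA polymerase, had -0.07, and MRPL10, at the base of the stalk, had 0.06. MRPS12, which shapes the decoding centre, had 0.00. MRPL44, near the exit of the peptide tunnel, had -0.11. MRPS18A, MRPS18B and MRPS18C, close relatives of each other, had -0.04, 0.02 and -0.04. MRPL41 had 0.02, MRPS30 had 0.07, MRPL28, a large subunit protein, had -0.02 and MRPS36 had 0.03. MRPL3 and MRPS16, in which mutations cause combined respiratory chain deficiency, had -0.07 and -0.02.

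An interaction term compared the hemisphere difference of TatNR2B9c animals with that of placebo animals. It gave 0 calls among members and among all genes at either time. At 6 h 1 member (MRPL27, 0.52 ± 0.21 SE), or 1.45%, and 4.27% of all genes had an unadjusted p under 0.05. At 1 h it was 1 member (MRPS21, -0.69 ± 0.25), or 1.45%, and 1.74% of all genes. The member medians were 0.13 at 6 h and -0.08 at 1 h, against 0.13 and -0.05 over all genes.

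In other lists of the pathway 0 genes were called between hemispheres in the same fit. The lists were chosen with earlier results of these data known. In the mean difference the median was -0.04 over 60 oxidative phosphorylation subunits (19 above 0), 0.06 over 7 mitochondrial translation factors (4 above 0) and 0.05 over 17 mitochondrial aminoacyl-tRNA synthetases (10 above 0). It was -0.02 over 19 mitoribosome assembly and RNA modification genes (8 above 0) and 0.02 over 14 mitochondrial transcription and biogenesis genes (9 above 0). For the 51 cytosolic ribosomal protein genes, which build the ribosomes outside mitochondria, it was -0.21 (4 above 0, with 12 at an unadjusted p under 0.05), against -0.02 (28 of 69 above 0) for the mitochondrial ones.

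The next question is what TatNR2B9c changed against placebo. At 6 h MRPL42 was higher and MRPS16 lower in TatNR2B9c cortex on both sides, and 7 more members were lower on the left. The right side had 2 of 69 called (1 higher and 1 lower, 2.90%), against 4.27% of all genes (2.64% higher and 1.63% lower). The left side had 9 of 69 called (1 higher and 8 lower, 13.04%), against 24.3% (10.6% higher and 13.7% lower). At an unadjusted p under 0.05 the counts at 6 h were 4 (5.80%) on the right and 13 (18.8%) on the left, against 20.7% and 37.2% of all genes. At 6 h the shares of members lie below those of all genes. In Cy5 alone the order was the other way: 9 (13.04%) on the right and 14 (20.3%) on the left were called at 6 h, against 7.74% and 16.2% of all genes. At 1 h 0 members were called on the right (1.59% of all genes, 0.37% higher and 1.22% lower) and 0 on the left (0.896%, 0.858% higher and 0.0376% lower). At an unadjusted p under 0.05 there were 13 members on the right and 9 on the left. Those are 18.8% and 13.04% of the members, above the 13.8% and 10.3% of all genes. The 0 at 1 h depends on the scaling. In Cy5 alone 21 members on the right (30.4%, against 16.8% of all genes) and 17 on the left (24.6%, against 21.9%) were called. Member counts were 61 and 62 under median centring, and 1 and 9 with every array scaled to an equal spread. The shares of all genes under median centring and equal spread are not given here, so those counts are no result about the members. All of these comparisons run across scan campaigns.

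MRPL42 read -0.52, 0.22 and 0.08 in TatNR2B9c right 6 h, against -1.95, -0.78 and -1.44 in placebo right 6 h. On the left it read -0.17, 0.19 and 0.03 in TatNR2B9c 6 h, against -0.53, -1.46 and -1.59 in placebo 6 h. The groups did not overlap on either side, as held for 30.2% of all genes on the right and 33.5% on the left. The differences were 1.31 ± 0.32 (SE; 2.49-fold, adjusted p = 0.0239) on the right and 1.21 ± 0.32 (2.31-fold, adjusted p = 0.0114) on the left. At 1 h the group means were 0.03 in TatNR2B9c right and -0.51 in placebo right, and 0.08 in TatNR2B9c left and -0.29 in placebo left. The 4 TatNR2B9c group means lay within 0.08 of the reference level, and the placebo 6 h groups had the 2 lowest means.

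MRPS16 read 0.14, -0.18 and -0.28 in TatNR2B9c right 6 h, against 0.89, 0.31 and 1.15 in placebo right 6 h. On the left it read -0.29, 0.44 and 0.12 in TatNR2B9c 6 h, against 1.104, 0.81 and 0.64 in placebo 6 h. The groups did not overlap on either side. The differences were -0.89 ± 0.21 (adjusted p = 0.0196) on the right and -0.76 ± 0.21 (adjusted p = 0.0132) on the left. The placebo 6 h groups had the 2 highest means, and the other 6 group means lay between -0.11 and 0.35.

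MRPL3, a large subunit protein, read -0.01, -0.52 and 0.02 in TatNR2B9c left 6 h, against 1.33, 0.71 and 0.54 in placebo left 6 h (difference -1.03 ± 0.21, adjusted p = 0.00231). On the right its values of -0.48, -0.47 and 0.11 in TatNR2B9c 6 h, against 0.49, 0.05 and 0.46 in placebo 6 h, overlapped. MRPS25 read 0.17, 0.86 and 0.48 in TatNR2B9c left 6 h, against 1.95, 1.27 and 0.99 in placebo left 6 h (-0.90 ± 0.23, adjusted p = 0.00928). These groups did not overlap.

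MRPL27 averaged 0.07 ± 0.15 in TatNR2B9c left 6 h and 0.72 ± 0.13 in placebo left 6 h (SD, n = 3 each, adjusted p = 0.00486 in limma). MRPL28 averaged -0.35 ± 0.41 and 0.33 ± 0.06 in the same groups (adjusted p = 0.024). MRPL20, a large subunit protein, differed by -0.61 (adjusted p = 0.0448), and MRPS9, a small subunit protein, by -0.52 (adjusted p = 0.0406). MRPS27, with the smallest difference of the 9, had -0.51. With the replicate number as a block MRPS9 had an adjusted p of 0.052 in limma, but across groups the same number covers different animals.

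**Figure D3:**
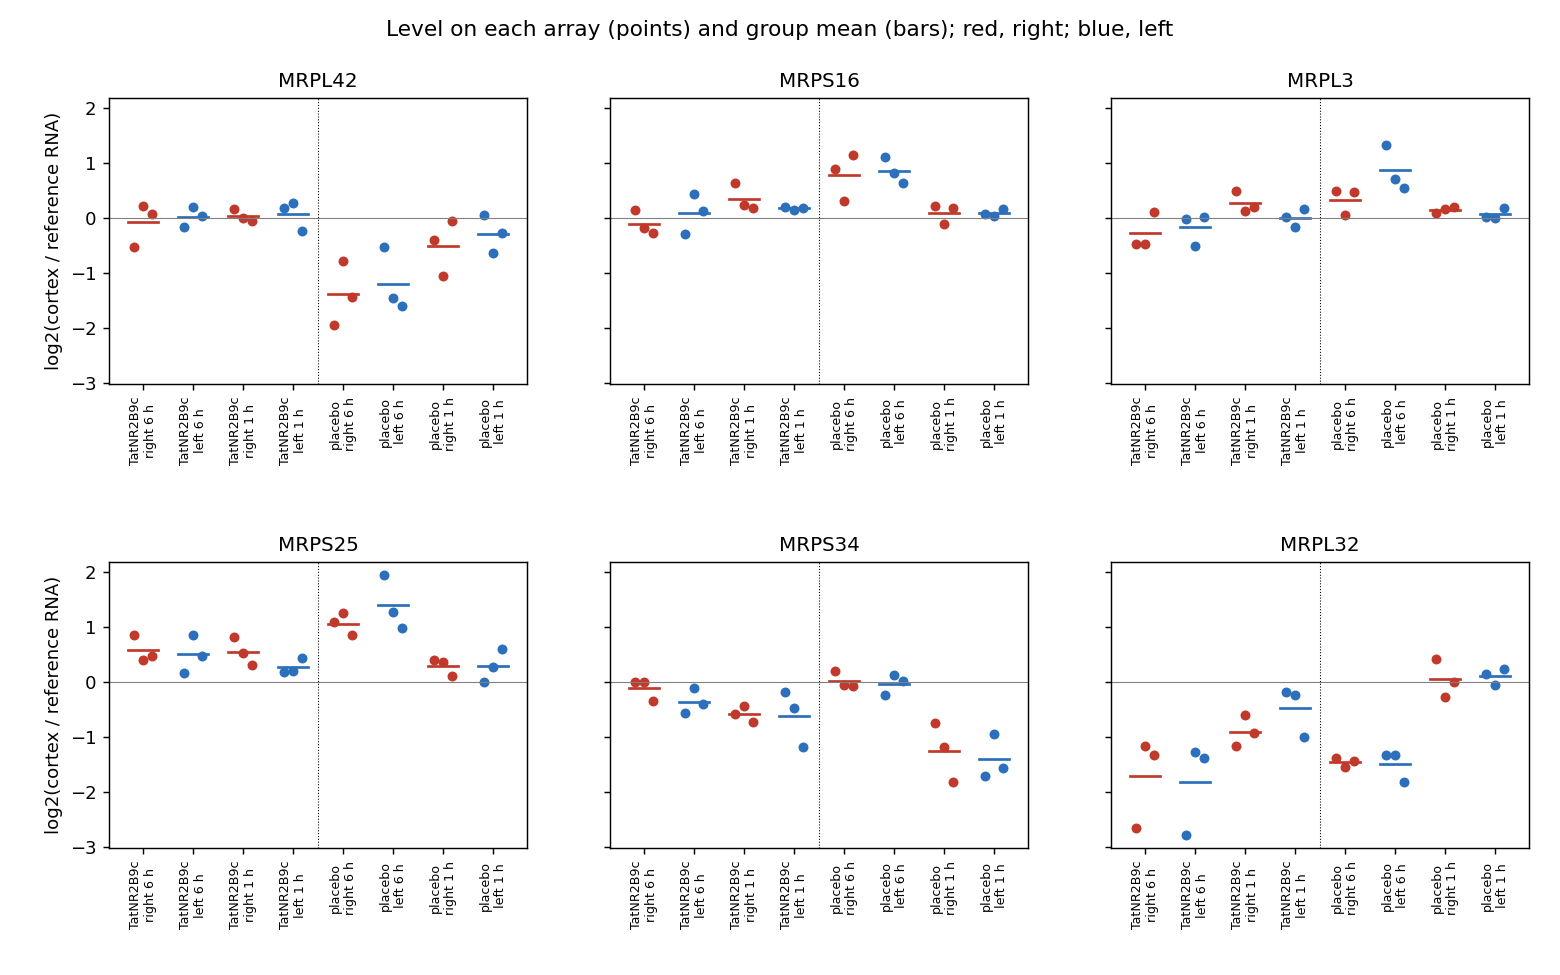
Log2 ratio of cortex over reference RNA on each array (points) and group means (bars) for 6 called members, with TatNR2B9c groups left of the dotted line and placebo groups right of it. The placebo 6 h groups have the lowest means for MRPL42 and the highest for MRPS16, and the placebo 1 h groups the lowest for MRPS34 and the highest for MRPL32.

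These calls were sensitive to 1 sample and to the scaling. The right-side count at 6 h was 0 without any 1 of placebo right 6 h array 1 or 3 or TatNR2B9c right 6 h array 2 or 3. On the left 3 members were called when array 1 of either group was left out, and 5 when placebo left 6 h array 3 was. With the Cy5 signal alone the differences had the same sign for 9 of 9 left-side calls and 1 of 2 right-side calls, and 4 and 0 of them were called. There MRPL42 differed by 0.21 on the right and 0.48 on the left, MRPS16 by 0.052 on the right and -0.81 on the left, and MRPL3 by -0.0996 on the left. With every array scaled to an equal spread, or from the authors' deposited ratios, 0 members were called at 6 h on either side.

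Markers of other cell types and genes of other lists were also called in the same comparison. Of all genes 13.7% were lower and 10.6% higher on the left, and 1.63% lower and 2.64% higher on the right. A count near or below those shares is no result about its list. On the left at 6 h 2 of 13 neuronal and 2 of 9 oligodendrocyte markers were lower in TatNR2B9c cortex, with list medians of -0.72 and -1.16. On both sides 2 of 6 neutrophil and red cell markers were higher, with medians of 1.54 on the right and 1.83 on the left. Their part in the members' differences was not tested. Of the companion lists on the left at 6 h, 5 of 60 oxidative phosphorylation subunits, 4 of 51 cytosolic ribosomal proteins, 4 of 17 aminoacyl-tRNA synthetases and 4 of 19 assembly genes were lower, and 0 in those lists were higher. The cytosolic ribosomal proteins RPL7, RPL10 and RPL37A had differences of -1.27, -1.24 and -1.06. On the right the called companions included RPS10, a cytosolic ribosomal protein (0.98), MTERF, a mitochondrial transcription termination factor (0.545), and DDX28, a helicase of large subunit assembly (-0.42).

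The last question is how levels moved with time. After TatNR2B9c, where both times come from 1 campaign, no gene was called between 6 h and 1 h in limma (0 members and 0.0% of genes on the right, 0 and 0.0% on the left). At an unadjusted p under 0.05, 9 members (13.04%) passed on the right and 5 (7.25%) on the left, against 19.4% and 16.1% of all genes. The member median was 0.02 on the right (0.04 over all genes) and -0.16 on the left (-0.01 over all genes). The genes named next missed the threshold and were chosen after their values were seen. The 2 smallest adjusted p on the left belonged to MRPL47, with -0.39 ± 0.20 at 6 h and 0.18 ± 0.09 at 1 h (SD, n = 3 each, adjusted p = 0.167 in limma), and to MRPL32 (adjusted p = 0.176). The MRPL32 probe was above background on 0 of the 3 TatNR2B9c left 1 h arrays, so no fold is given there. The MRPL47 probe was above background in Cy5 on all arrays of 3 of 8 groups. How far background readings set its difference was not tested. On the right MRPS24, a small subunit protein, had 0.04 at 6 h and -0.60 at 1 h (adjusted p = 0.085).

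After placebo many genes were called, in a comparison across campaigns. MRPS34, MRPL28, MRPS25 and MRPS16 were higher at 6 h and MRPL32, MRPS22, MRPL42 and MRPL16 lower, on both sides. Several of these signs depend on the setting. In the Cy5 signal alone MRPS25 had the opposite sign on both sides (-0.25 on the right and -0.086 on the left). So did MRPL16 on the right (0.16) and MRPL32 on the left (0.25). Under median centring MRPS34 and MRPS25 turned on both sides and MRPL28 on the right. With every array scaled to an equal spread MRPS22 and MRPL16 turned on both sides. On the right 13 of 69 members were called between 6 h and 1 h (7 higher and 6 lower, 18.8%), against 40.8% of all genes (21.5% higher and 19.4% lower). On the left 27 were called (13 higher and 14 lower, 39.1%), against 54.1% (30.8% higher and 23.3% lower). All 13 called on the right were also called on the left with the same sign, which is 48.1% of the 27. Both sides come from the same animals and cross the same campaigns, so the left is no independent repeat of the right. The overlap over all genes was not counted. In Cy5 alone 25 members on the right (36.2%) and 20 on the left (29.0%) were called, against 24.4% and 14.7% of all genes. By symbol, 6 MRPL genes were higher and 10 lower on the left, and 7 MRPS genes were higher and 4 lower, with MRPS18A among those 4.

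MRPS34 read 0.21, -0.05 and -0.07 in placebo right 6 h, against -0.74, -1.18 and -1.82 in placebo right 1 h. On the left it read -0.23, 0.14 and 0.01 at 6 h, against -1.70, -0.94 and -1.56 at 1 h. The groups did not overlap, as held for 59.7% of all genes on the right and 63.8% on the left. The differences were 1.27 ± 0.26 (SE, adjusted p = 0.00102) and 1.37 ± 0.26 (adjusted p = 0.000328). With Cy5 alone they were 1.75 and 1.32. Under median centring the sign turned, to -1.56 and -2.15.

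MRPL32, a large subunit protein whose maturation by a mitochondrial protease is needed for ribosome assembly, went the other way. It read -1.38, -1.53 and -1.44 in placebo right 6 h, against 0.41, -0.26 and 0.01 in placebo right 1 h. On the left it read -1.32, -1.33 and -1.82 at 6 h, against 0.14, -0.05 and 0.24 at 1 h. The differences were -1.50 ± 0.38 (adjusted p = 0.00409) and -1.60 ± 0.38 (adjusted p = 0.0017). In the Cy3 reference channel alone the same probe differed by 0.84 and 1.79 between these groups, and in Cy5 alone by -0.44 and 0.25. The left-side difference therefore had the opposite sign in the cortex channel. The MRPL32 probe was above background in Cy5 on all arrays of 4 of 8 groups. How far background readings set its ratios near 0 at 1 h was not tested.

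Among the other members named on the left, MRPL28 was higher at 6 h by 0.86 ± 0.21, MRPS25 by 1.11 ± 0.23 and MRPL27 by 0.83 ± 0.15. The second, dimmer MRPL27 probe differed there by -0.046. MRPL19 (-1.28 ± 0.38), MRPL50 (-1.17 ± 0.36), MRPL13 (-1.07 ± 0.26), MRPL16 (-1.05 ± 0.31) and MRPS22 (-0.97 ± 0.31) were lower. On placebo left 1 h array 1, whose ratios as a whole were compressed (SD 0.36 over genes, against 0.64 to 1.67 on the other arrays), MRPL19, MRPL13, MRPL50 and MRPS22 read 0.20, 0.23, 0.19 and -0.06. On array 2 of that group they read -1.82, -1.23, -1.35 and -1.71. Leaving out the 3 weak-reference arrays leaves 1 array in placebo left 1 h. The lone array is there assumed to vary like the other groups, so no count of calls is given for that fit. With Cy5 alone 21 of the 27 left-side calls and 10 of the 13 right-side calls kept their sign, and 10 and 5 of them were called.

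Of the genes chosen for their role, MRPL10 had a lower ratio at 6 h on the left (-0.53 ± 0.10, adjusted p = 0.000435), where its probe was above background on 3 of 3 arrays at 6 h and 1 of 3 at 1 h. In Cy5 alone it differed by 0.10, and in the Cy3 reference by 0.61. MRPS18A had a lower ratio on both sides (-0.42 on each). In Cy5 alone it differed by 0.24 on the right and 0.10 on the left, and in Cy3 by 0.54 and 0.91. MRPL3 was higher on the left (0.79), and MRPS16 on both sides (0.69 on the right and 0.76 on the left). MRPL12, MRPS12, MRPL44, MRPS18B, MRPS18C, MRPL41, MRPS30 and MRPS36 were called in no comparison.

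**Figure D4:**
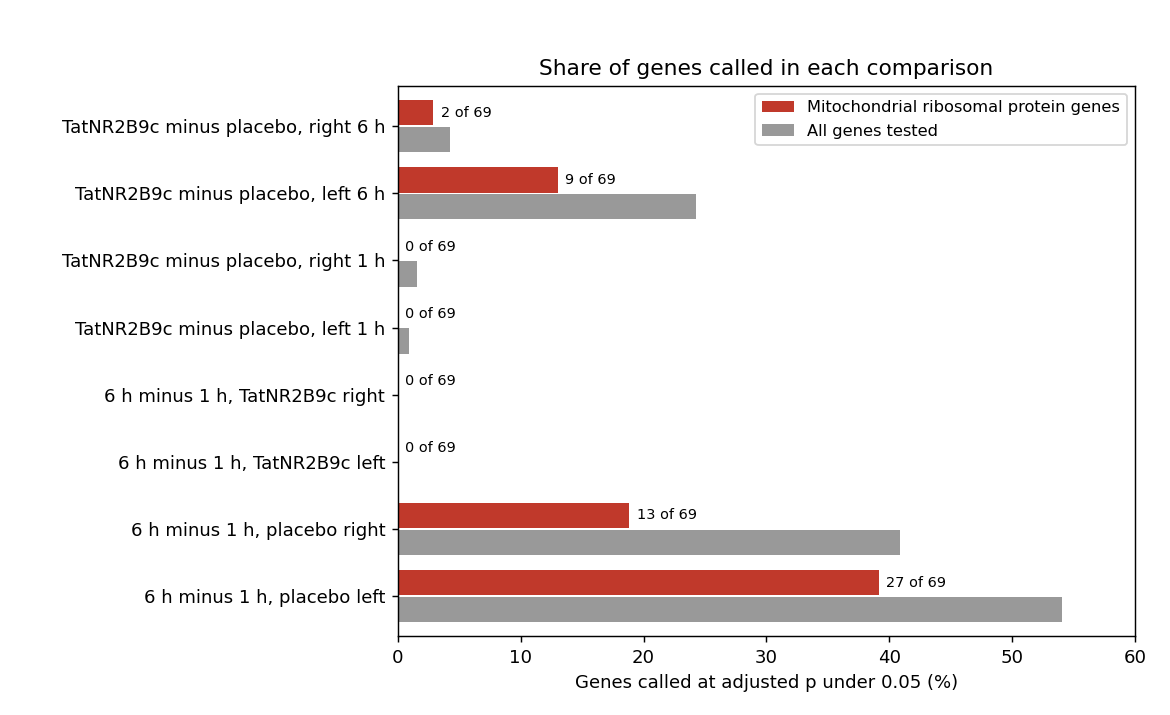
Share of genes called at an adjusted p under 0.05 in the 8 treatment and time comparisons, for the 69 mitochondrial ribosomal protein genes (red, with counts) and all genes tested (grey). In these ratios the red bar is the shorter one wherever any gene was called, for example 18.8% against 40.8% for 6 h minus 1 h in placebo right cortex. In Cy5 alone that comparison gave 36.2% against 24.4%.

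Cell type markers were also called between these placebo groups, where 40.8% of all genes were called on the right and 54.1% on the left. Higher were 21.5% of all genes on the right and 30.8% on the left, and lower were 19.4% and 23.3%. A count near or below those shares is no result about its list. All 13 neuronal markers were called higher at 6 h on both sides, with medians of 2.12 on the right and 2.41 on the left, as were 3 of 9 and 6 of 9 oligodendrocyte and 3 of 8 and 4 of 8 astrocyte markers. Of the microglia and macrophage markers 4 of 8 were lower on the right (median -0.71) and 0 of 8 on the left (median -0.43). Of the neutrophil and red cell markers 2 of 6 were lower on each side (medians -1.25 and -0.87), and 1 was higher on the left. Of the endothelial and mural markers 1 of 8 was lower on the right (median -0.13) and 0 of 8 called on the left (median -0.058). Their part in the members' differences was not tested. Of the companion lists 11 of 60 oxidative phosphorylation subunits were called on the right (7 higher) and 19 on the left (13 higher). Of 51 cytosolic ribosomal proteins 8 were called on the right (6 higher) and 14 on the left (12 higher). Both lists lay below the share of all genes on each side. UQCRB, a complex III subunit, was higher by 1.66 on the right and 2.05 on the left.

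On each single array the median of the 69 genes lay below the all-gene median, with 1 exception. The medians were between -0.72 and -0.14 on 23 arrays and 0.03 on placebo left 1 h array 1. The lowest was TatNR2B9c left 6 h array 1, the array whose animal also had the highest right minus left median.

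**Figure D5:**
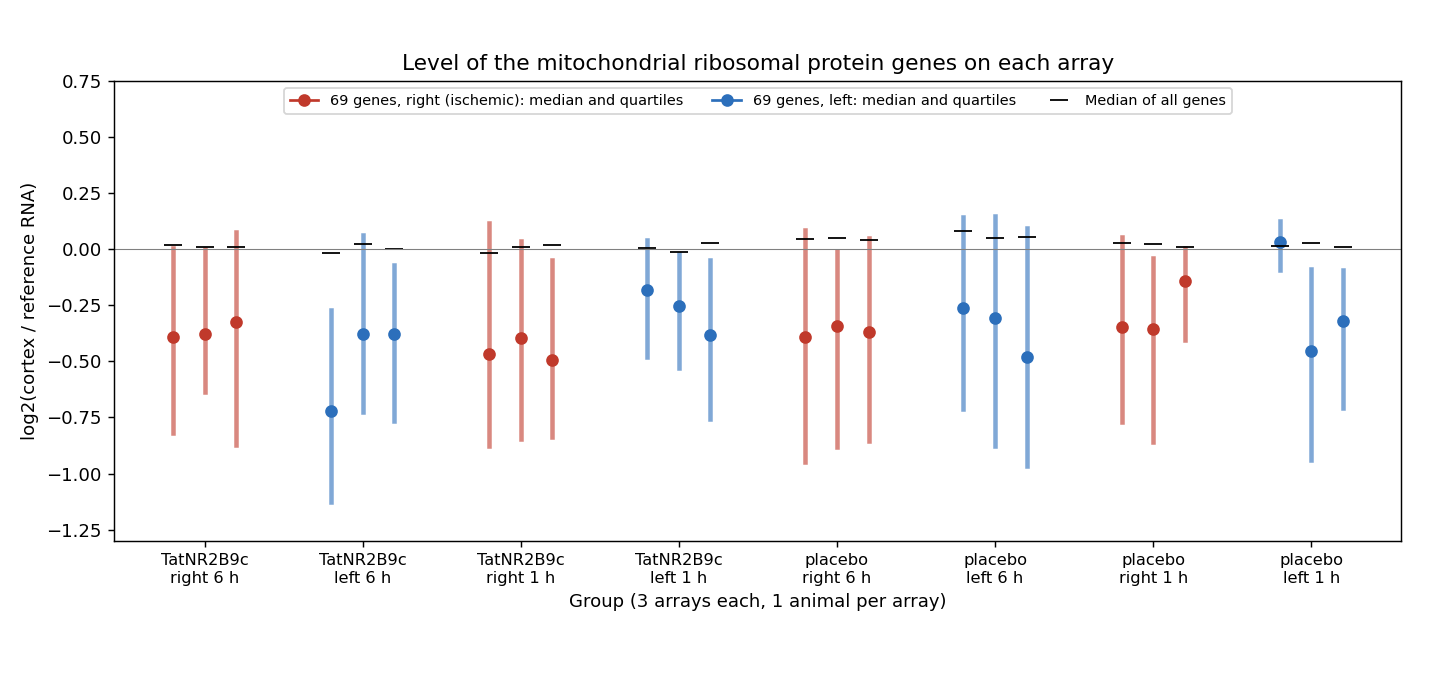
Median (points) and quartiles (lines) of the log2 ratio over the 69 genes on each of the 24 arrays, in red for right and blue for left cortex, with the median of all genes as black dashes. All points but that of placebo left 1 h array 1 (0.03) lie below the dashes, the lowest being TatNR2B9c left 6 h array 1 at -0.72.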

How the data were processed

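Cortex RNA of 24 samples was hybridised in Cy5 against a reference in Cy3 on 2-colour Agilent rhesus macaque arrays. The deposited scanner files hold mean and background intensity and flags per spot, written by Agilent Feature Extraction. The submitters' processing notes name version 10.7.3.1, while per the file headers it was 10.7.3.1 for TatNR2B9c, 10.5.1.1 for placebo 6 h and 9.5.3.1 for placebo 1 h. The deposited table of log10 ratios matched the scanner's own log10 ratio within 0.005 and served as an alternative. The table's scale and direction (Cy5 over Cy3) follow from that match.

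Intensities were corrected with normexp (offset 50), loess-normalised within arrays with control spots at weight 0, and averaged per probe, which gave the log2 ratios (limma 3.58.1, R 4.3.3). Probes well above background in Cy5 on all 3 arrays of at least 1 group were kept (17226 of 20217), with 1 probe per gene by brightness, leaving 15959 genes. One limma model over the 8 groups gave 15 contrasts, called at a Benjamini-Hochberg adjusted p under 0.05. Replicates were separate animals. Array number and signal limit precision. The model was tested on simulated data.

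The members and lists were chosen with earlier results of these data known. Named were up to 8 called members per comparison by size, the 3 largest mean right-left differences each way, role-chosen members, multi-probe members and up to 3 called companions. Replicate numbers name 1 animal's right and left samples in the titles. The correlation of paired deviations ran from -0.71 to 0.69 over the 12 animals. Alternatives covered background, scaling, the deposited ratios, Cy5 alone, filter, probe rule, groups fitted, array weights, slide, scan day and replicate blocks, and leaving out arrays.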

Additional observations from a re-analysis of the deposited data

Results flagged for a closer look

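The right minus left difference of MRPL3 had opposite signs in the placebo animals at 6 h and 1 h. It ran from -0.85 to -0.08 in the 3 animals at 6 h and from 0.02 to 0.16 in the 3 at 1 h, a difference of means of -0.61. That difference was not tested. The 2 times were scanned in different campaigns. MRPL3 was picked after its values were seen, and the number of genes searched is not given here. Whether such a split would arise by chance in that search was not tested. Placebo 1 h animals 1 and 3 rest on arrays with a weak reference. The MRPL3 probe was above background in Cy5 on all arrays of 5 of 8 groups.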

How the results depend on the processing

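The 0 member calls between hemispheres and in the interactions held under every alternative run. The replicate block gave 14 members against 13 for 6 h minus 1 h in placebo right and changed no other member count. The MRPS9 call above was the 1 named call lost with this block. In the right-left and interaction comparisons the block pairs the sides of an animal. In the treatment and time comparisons the same number covers different animals, so there it is no animal block. Slide and scan day as blocks moved no count by over 1.5 times. In the treatment and placebo time comparisons, however, no slide or scan day held both groups. There the blocks entered only as a correlation between arrays (0.027 for slide and 0.084 for scan day). Such a block cannot remove a slide or day difference, so those unchanged counts say nothing about one. The counts below are of members alone, without the share of all genes under the same setting. They show how the calls depend on the setting and are no result about the members.

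Median centring took the all-gene median of TatNR2B9c minus placebo, left 1 h, to -0.97, against 0.02 with loess. The member counts became 61 and 62 for TatNR2B9c minus placebo right and left 1 h, 1 for right 6 h, and 59 and 60 for 6 h minus 1 h in placebo right and left. Member medians became -2.31, -0.996, -3.01 and -1.07 (treatment, right 1 h, right 6 h, left 1 h and left 6 h), -1.06, -0.82, -2.45 and -2.98 (time, TatNR2B9c right and left, placebo right and left), -0.46 and 0.23 (right minus left, placebo and TatNR2B9c 1 h) and 0.73 (interaction, 1 h). Signs turned for MRPS34 (-2.15 left, -1.56 right), MRPS25 (-0.096 left, -0.20 right) and MRPL28 (-0.15 right) in the placebo time comparisons.

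Equal spread gave 1, 0, 9 and 0 calls for treatment (right 1 h, right 6 h, left 1 h, left 6 h), and 1 and 5 for placebo time (right, left). Medians were 0.11 and -0.077 for treatment (right 1 h and 6 h), 0.16, 0.15, 0.30 and 0.18 for time (TatNR2B9c right and left, placebo right and left), 0.11 for right minus left in TatNR2B9c 1 h and 0.19 for the interaction at 1 h. Signs turned for MRPL19 (0.070), MRPL16 (0.085 left, 0.30 right) and MRPS22 (0.50 left, 0.68 right).

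The deposited ratios gave 2, 0, 6 and 0 calls for treatment in the same order, and 4 and 16 for placebo time. Medians were -0.16, -0.14 and -0.53 for treatment (right 1 h, right 6 h, left 1 h), -0.035 and -0.46 for time (TatNR2B9c right, placebo left), 0.025 for right minus left in TatNR2B9c 1 h and 0.27 for the interaction at 1 h. MRPS25 turned to -0.60 (right).

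Cy5 alone gave 21, 9, 17 and 14 calls for treatment and 25 for placebo time on the right. Medians were 0.041, -0.12 and -0.36 for treatment (right 1 h, right 6 h, left 6 h), 0.071 for placebo time on the right, and 0.062, -0.011 and 0.22 for right minus left (placebo 6 h, TatNR2B9c 1 h, TatNR2B9c 6 h). Signs turned for MRPL32 (0.25 left), MRPS25 (-0.086 left, -0.25 right), MRPL16 (0.16 right) and MRPS16 (0.052, treatment right 6 h).

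Fitting only the compared groups gave 0 and 0 calls for treatment at 6 h and 16 for placebo time on the left. Array weights gave 13 (treatment right 1 h), 5 (treatment left 6 h) and 2 (time, TatNR2B9c right). Without the 3 weak-reference arrays the counts were 8 and 10 for placebo time, and the medians 0.030 (treatment right 1 h) and -0.23 (interaction 1 h). Leaving out 1 array gave 0 to 2, 0 to 1 and 3 to 12 calls for treatment right 6 h, left 1 h and left 6 h. It gave 0 to 1, 0 to 3 and 7 to 12 for time in TatNR2B9c right, TatNR2B9c left and placebo right. Medians ran from -0.12 to 0.030 (treatment right 1 h), -0.014 to 0.035 (treatment right 6 h), -0.039 to 0.030 (time, TatNR2B9c right) and 0.011 to 0.21 (interaction 6 h). The causes were not tested. The dim probes, the weak reference arrays and 3 animals per group limit the precision.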
